A study of Homo sapiens with 6 samples.

Results

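Collagens and laminins are the chains from which cells build fibrils and basement membranes. The chains were picked by symbol alone from the deposited gene read count table (COL, a number, A and a number for collagens; LAMA, LAMB or LAMC and a digit for laminins). This gave 56 genes of the 20532 in the table, 44 collagen chains and 12 laminin chains. Their RNA was read from stranded mRNA libraries of MDA-MB-231 M3 cells, which derive from the triple-negative human breast cancer line MDA-MB-231 and are described in the labels as bone-metastatic. The 6 libraries form 2 groups, 3 biological replicates with siRNA-mediated knockdown of PRMT1 (siPRMT1) and 3 biological replicates of control cells of the same line. The labels call the control cells untreated or control and do not say whether they were transfected. All values are from bulk RNA of 1 cultured line, in which fewer cells with a transcript and less of it per cell cannot be told apart.

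Every collagen molecule is a rope of 3 chains, made of the same chain or of different ones. Each laminin is a trimer of an alpha, a beta and a gamma chain. Fibrillar collagens give tissues their tensile strength, collagen IV and laminins polymerise into the sheets of basement membranes, and other collagens decorate fibrils, anchor epithelia or sit in the plasma membrane. A trimer needs all its chains in the endoplasmic reticulum, so the relative supply of chain RNAs bears on which trimers a cell can assemble. PRMT1 is the methyltransferase that places most asymmetric dimethylarginine on proteins. In breast carcinoma cells the laminin built with LAMA3 and LAMB3 is known as a substrate for adhesion and migration, and collagens of bone and stroma are mostly made by fibroblasts and osteoblasts.

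PRMT1 had 193, 218 and 181 counts in the siPRMT1 libraries, against 3160, 2991 and 3072 in the control libraries. Total counts per library lay between 16968563 and 20545995. The share of counts from the mitochondrial genome was 8.64% to 8.74% in siPRMT1 libraries and 5.001% to 5.09% in control libraries; its part in the results was not tested. The 6 markers of the basal and mesenchymal tumour line (VIM, CD44, EGFR, CAV1, MSN and AXL) summed to between 4429 and 4483 CPM in siPRMT1 libraries and between 4610 and 4635 CPM in control libraries, where CPM are counts scaled to a common library size by TMM. Within this sum 2 rose and 4 fell. By log2 fold change, siPRMT1 minus control, VIM (0.38, -0.11 corrected for GC content and transcript length) and AXL (0.36, 0.46 corrected) rose. CAV1 (-1.14, -0.68 corrected), EGFR (-1.08, -0.21 corrected), CD44 (-0.72, 0.087 corrected) and MSN (-0.24, -0.014 corrected) fell. The 7 luminal breast markers summed to between 2469 and 2500 CPM in siPRMT1 libraries and between 836 and 867 CPM in control libraries, mostly from KRT8 (1.52, 0.57 corrected for GC content and transcript length) and KRT18 (1.82, 0.80 corrected). Of the other luminal markers, GATA3 fell (-0.70, -0.87 corrected), and ESR1, PGR and FOXA1 stayed under 10 counts in every library. ERBB2 rose (0.25) but lay at -0.069 corrected and at -0.065 with library totals, past the threshold in neither. The part of the luminal marker shift in the results was not tested. The 8 fibroblast markers summed to between 6.02 and 6.83 CPM in siPRMT1 libraries and between 6.5 and 7.67 CPM in control libraries, with 4 of 8 under 10 counts everywhere and THY1 and PDPN at 0. The 6 endothelial markers summed to at most 21.3 CPM in siPRMT1 libraries and 26.4 CPM in control libraries, and the 6 leukocyte markers to at most 24.6 CPM and 13.6 CPM, with 4 of 6 under 10 counts everywhere in both lists. Library totals in place of TMM shifted the median log2 fold change of all tested genes by -0.317, and directions that turn with scaling by library size alone are given beside the genes.

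The summed level of either family changed little beside that of single chains. The collagen chains together averaged 918 ± 5.83 CPM in siPRMT1 libraries and 965 ± 22.04 CPM in control libraries (SD, n = 3 each). The laminin chains together averaged 1823 ± 9.84 CPM in siPRMT1 libraries and 1914 ± 14.04 CPM in control libraries. These sums were 4.89% and 4.72% lower in siPRMT1 libraries, and 23.7% and 23.5% lower with scaling by library size alone. Within the sums, COL6A3, a chain of collagen VI, and COL12A1, a fibril-associated collagen, fell 5.94-fold and 5.86-fold, LAMC1, a laminin gamma chain, fell 2.03-fold and COL1A1, a collagen I chain, rose 3.26-fold.

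Of the 56 chains, 32 had enough counts for the test, the quasi-likelihood test of edgeR, Benjamini-Hochberg adjusted over all 13710 tested genes. The adjusted p was under 0.05 for 28 of them, 12 higher and 16 lower in siPRMT1 libraries. That is 87.5% of the tested chains, beside 89.3% of all tested genes, so the share is close to the background. Higher chains made up 37.5%, beside 44.3% of all tested genes, and lower chains 50%, beside 45%. Chains at least 2-fold lower numbered 8 (25%, beside 21% of all tested genes). The only chain at least 2-fold higher was COL1A1 (3.12%, beside 15.3% of all tested genes). The libraries of the groups did not overlap for 29 tested chains (90.6%, beside 89.1% of all tested genes). The median log2 fold change, siPRMT1 minus control, was -0.20 over the 22 tested collagen chains and -0.27 over the 10 tested laminin chains, beside -0.0082 over all tested genes. With scaling by library size alone 7 chains were higher (33.5% of all tested genes were) and 22 lower (55.4% of all tested genes). The labels do not say whether the replicates came from separate transfections, so the p-values measure the spread between these libraries, which may be technical.

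**Figure D1:**
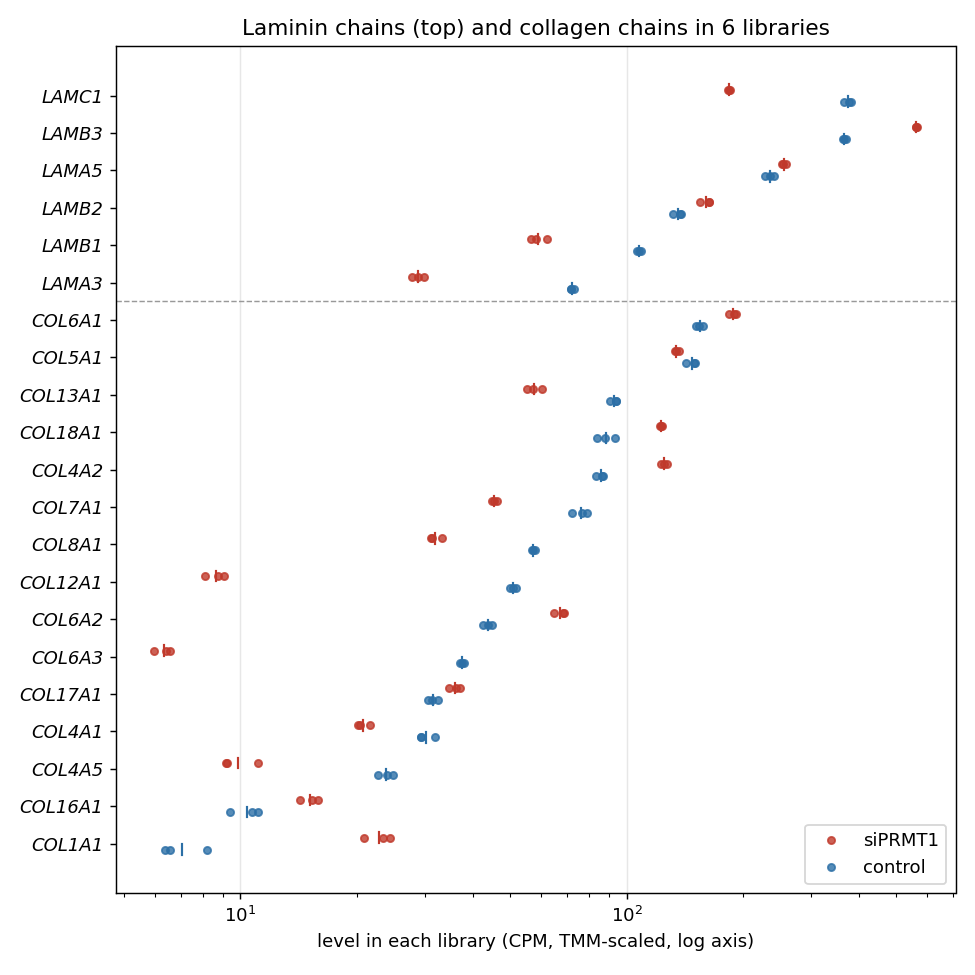
Level of 21 chains with a mean of at least 10 CPM in each of 6 libraries (TMM-scaled CPM, log axis; dots are libraries, bars are group means; siPRMT1 above control for each gene). The libraries of a group lie close together, and LAMC1, LAMA3, COL12A1 and COL6A3 lie far lower in siPRMT1 libraries, COL1A1 far higher. LAMA5, LAMB2 and COL17A1, drawn slightly higher, turn lower with scaling by library size alone. COL6A1, also drawn slightly higher, changes sign with that scaling without passing the threshold.

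Per kilobase of canonical transcript, laminin chains led the order of levels. LAMB3 stood at 140.4 ± 0.643 CPM per kilobase in siPRMT1 libraries and 91.3 ± 0.873 in control libraries (SD, n = 3 each). COL6A1 was the highest collagen chain, with 44.9 ± 1.01 CPM per kilobase in siPRMT1 libraries and 36.8 ± 0.774 in control libraries. COL1A1, at 3.87 ± 0.307 CPM per kilobase in siPRMT1 libraries and 1.19 ± 0.167 in control libraries, stood at place 16 of the 56 chains in siPRMT1 libraries and at place 24 in control libraries. With the merged gene lengths of the deposited table in place of the transcript lengths, LAMB3 and COL6A1 kept their places, and COL1A1 was at place 16 and at place 23.

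The laminin chains of epithelial basement membranes moved in opposite directions. LAMB3, the beta chain that pairs with LAMA3 (ENSG00000196878; hg38, chromosome 1, 209614870 to 209652425, minus strand), had 566, 563 and 561 CPM in siPRMT1 libraries, against 365, 364 and 371 CPM in control libraries. LAMA3, the alpha chain (ENSG00000053747; hg38, chromosome 18, 23689453 to 23954648, plus strand), had 27.9, 28.8 and 29.9 CPM in siPRMT1 libraries, against 72.9, 72.0 and 72.0 CPM in control libraries. Neither chain overlapped between the groups: LAMB3 was higher in every siPRMT1 library and LAMA3 far lower. The log2 fold change was 0.62 (SE 0.0140; edgeR adjusted p = 4.63e-179) for LAMB3. For LAMA3 it was -1.33 (SE 0.0425; edgeR adjusted p = 1.58e-121), a 2.51-fold fall. Once GC content and transcript length were corrected for, the values were 0.25 and -0.63, both still past the threshold (adjusted p = 5.09e-20 and 1.64e-19 by edgeR).

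Counts of LAMA3 per count of LAMB3 were 0.0492, 0.0511 and 0.0533 in siPRMT1 libraries, against 0.200, 0.197 and 0.194 in control libraries, a log2 difference of -1.95 (-0.88 from the corrected values). Such a ratio within a library does not depend on the scaling. It was lower in every siPRMT1 library. In all, 10 chain ratios with both chains tested are given, several of them with a chain in common. All 10 were separate between the groups. Levels of single genes were separate in 89.1% of all tested genes, but no such share was computed for ratios. Each ratio had an exact two-sided permutation p of 0.1, the smallest that 3 libraries against 3 can give. It was also 0.1 after Benjamini-Hochberg adjustment over the 10 ratios.

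The gamma chain shared by most other laminins, LAMC1 (ENSG00000135862; hg38, chromosome 1, 183023420 to 183145592, plus strand), had 185, 185 and 183 CPM in siPRMT1 libraries, against 378, 381 and 366 CPM in control libraries. Its partner LAMB1, the beta chain of embryonic and vascular laminins, had 62.3, 56.6 and 58.3 CPM in siPRMT1 libraries, against 108, 106 and 109 CPM in control libraries. Both were well below the controls in every siPRMT1 library, with log2 fold changes of -1.02 (SE 0.0197; edgeR adjusted p = 2.24e-209) for LAMC1 and -0.87 (SE 0.0332; edgeR adjusted p = 6.85e-97) for LAMB1. After the correction they were -0.29 and -0.35, still past the threshold (adjusted p = 1.17e-17 and 1.30e-13 by edgeR).

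The other beta chain, LAMB2, found in basement membranes of kidney, muscle and nerve, had 155, 164 and 164 CPM in siPRMT1 libraries, against 132, 138 and 138 CPM in control libraries. Its log2 fold change was 0.24 (SE 0.0254, edgeR adjusted p = 5.85e-20). After the correction LAMB2 lay at 0.073 (adjusted p = 0.00822 by edgeR), beside a median of 0.067 over all tested genes. It was lower at -0.074 with scaling by library size alone. LAMA5, the broadly expressed alpha chain, had 253, 258 and 253 CPM in siPRMT1 libraries, against 228, 236 and 242 CPM in control libraries, with 0.12 (SE 0.0205; edgeR adjusted p = 1.81e-08), lower at -0.20 with that scaling, and not past the threshold after the correction (0.042, adjusted p = 0.0630 by edgeR). These differences are small beside those of LAMC1 and LAMB1. Relative to LAMC1, LAMA5 had 1.37, 1.40 and 1.38 counts per count in siPRMT1 libraries, against 0.604, 0.619 and 0.659 in control libraries. LAMB2 per LAMC1 was 0.836, 0.888 and 0.894 in siPRMT1 libraries, against 0.349, 0.363 and 0.376 in control libraries. Both ratios were about 2 times higher after knockdown, by 1.14 and 1.27 on the log2 scale, and by 0.34 and 0.37 from corrected values. LAMB1 per LAMC1 was 0.337, 0.307 and 0.318 in siPRMT1 libraries, against 0.285, 0.279 and 0.297 in control libraries, a log2 difference of 0.16 that was -0.051 from corrected values.

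The remaining laminin chains were close to the limit of detection. LAMA2, the alpha chain of muscle, fell to 0.634 ± 0.164 CPM in siPRMT1 libraries, against 1.76 ± 0.0277 CPM in control libraries (SD, n = 3 each), a log2 fold change of -1.44 (SE 0.268; edgeR adjusted p = 1.59e-07) that did not pass after the correction (-0.51, adjusted p = 0.0829 by edgeR). LAMA1, an embryonic alpha chain, had 24, 19 and 22 counts in siPRMT1 libraries, against 37, 32 and 42 in control libraries, and did not pass (adjusted p = 0.0645 by edgeR). Without siPRMT1 replicate 1 LAMA1 passed, at -0.52 (adjusted p = 0.0472 by edgeR), as it did with upper-quartile scaling (-0.47, adjusted p = 0.0394 by edgeR) and with library size alone (-0.74, adjusted p = 0.00113 by edgeR), and after the correction it lay at 0.24. LAMA4, the alpha chain of vessels and muscle, had 18, 23 and 20 counts in siPRMT1 libraries, against 27, 16 and 22 in control libraries (adjusted p = 0.348 by edgeR), and was higher at 1.16 after the correction (adjusted p = 5.62e-05 by edgeR).

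**Figure D2:**
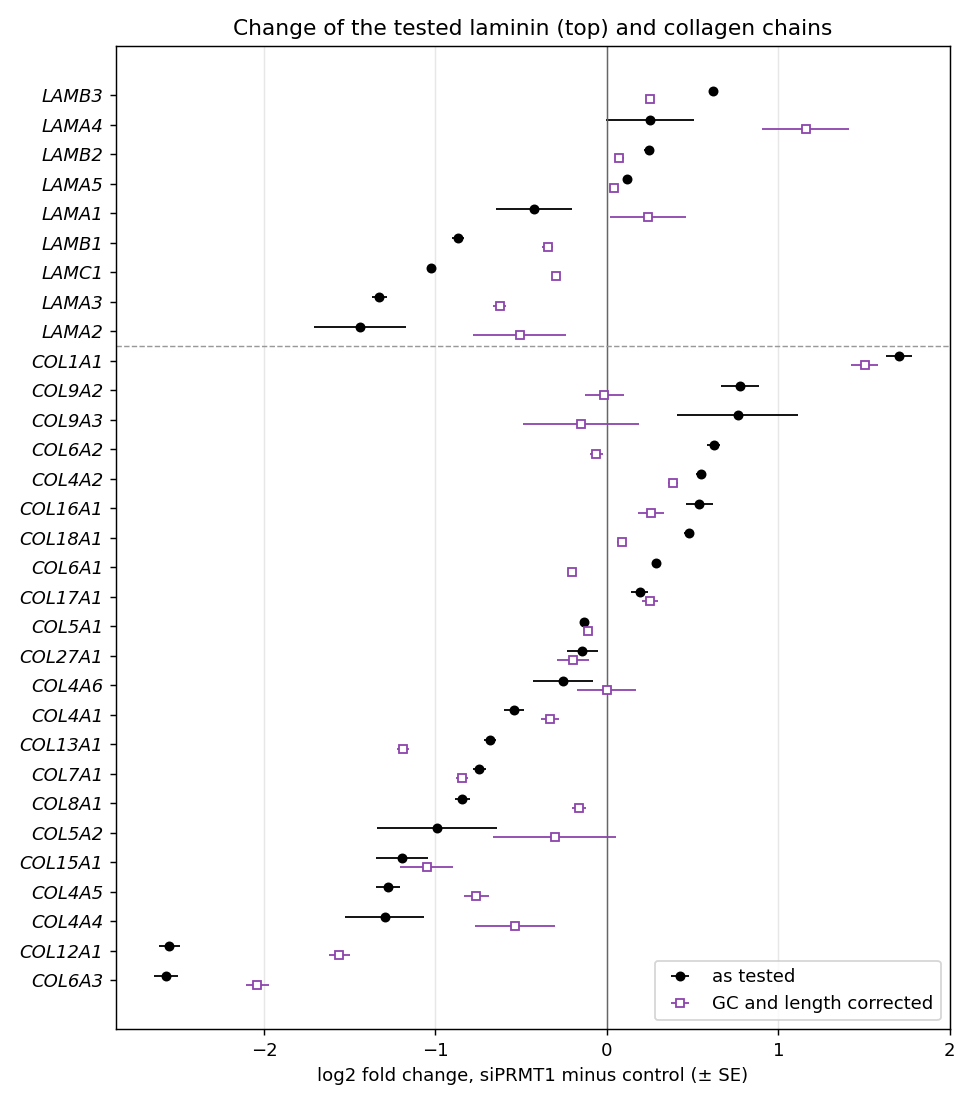
Log2 fold change (siPRMT1 minus control, ± SE) of 9 tested laminin chains (top) and the 22 tested collagen chains, as tested (filled) and after correction for GC content and transcript length (open). COL6A3 and COL12A1 lie lowest and COL1A1 highest by both; LAMA1, COL6A1, COL6A2, COL9A2 and COL9A3 change sign with the correction, and COL6A1, LAMA4, LAMA5, LAMB2 and COL17A1 with scaling by library size alone.

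Collagen IV is the network collagen of basement membranes, and its chain genes lie in head-to-head pairs that share the stretch between their start sites. COL4A1 and COL4A2, the chains of the common trimer, moved in opposite directions. COL4A1 (ENSG00000187498; hg38, chromosome 13, 110148963 to 110307157, minus strand) had 20.2, 21.7 and 20.4 CPM in siPRMT1 libraries, against 32.0, 29.3 and 29.4 CPM in control libraries. COL4A2 (ENSG00000134871; hg38, chromosome 13, 110305812 to 110513024, plus strand) had 125, 127 and 123 CPM in siPRMT1 libraries, against 86.4, 83.5 and 87.2 CPM in control libraries. Every siPRMT1 library was below the controls for COL4A1 and above them for COL4A2. The log2 fold changes were -0.54 (SE 0.0559; edgeR adjusted p = 2.74e-20) for COL4A1 and 0.55 (SE 0.0292; edgeR adjusted p = 5.83e-60) for COL4A2, and after the correction -0.33 and 0.39, both still past the threshold. COL4A2 had 6.19, 5.86 and 6.03 counts per count of COL4A1 in siPRMT1 libraries, against 2.7, 2.84 and 2.96 in control libraries, a log2 difference of 1.09 (0.72 from corrected values).

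The promoter windows of this pair are shown because the windows overlap and the genes differed in direction. RefSeq (GRCh38.p14, the assembly behind hg38) places the start sites 127 bases apart, and its windows from 250 bases before to 50 bases after each start site have 226 bases in common, read on opposite strands. Capitals mark GGGCGG, the core of the GC box, and CCAAT, on either strand, so that CCGCCC and ATTGG are matches on the other strand. The window of COL4A1 is chr13:110307108-110307407, minus strand, and that of COL4A2 is chr13:110307034-110307333, plus strand.
COL4A1: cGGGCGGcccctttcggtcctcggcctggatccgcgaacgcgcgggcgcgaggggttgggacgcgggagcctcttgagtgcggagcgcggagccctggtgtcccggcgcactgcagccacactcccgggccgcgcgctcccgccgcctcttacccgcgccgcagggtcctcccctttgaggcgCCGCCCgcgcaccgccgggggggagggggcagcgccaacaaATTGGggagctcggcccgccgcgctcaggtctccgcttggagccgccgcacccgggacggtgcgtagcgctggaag
COL4A2: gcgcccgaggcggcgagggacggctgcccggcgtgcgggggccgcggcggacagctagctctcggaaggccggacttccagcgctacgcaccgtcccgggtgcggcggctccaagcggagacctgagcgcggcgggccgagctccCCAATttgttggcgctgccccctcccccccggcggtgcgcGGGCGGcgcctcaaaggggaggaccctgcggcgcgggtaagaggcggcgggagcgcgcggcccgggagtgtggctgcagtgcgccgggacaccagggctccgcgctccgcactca
Each window holds 45 CG pairs, and the GC content is 76.7% for COL4A1 and 77.7% for COL4A2. The COL4A1 window has 2 GGGCGG matches and 1 CCAAT match, and the COL4A2 window has 1 of each. The CCAAT match and 1 GGGCGG match lie in the common stretch. Over the 35116 windows in the RefSeq table, 45% held GGGCGG and 34.6% held CCAAT. RefSeq windows were found for 41 of the 56 chains, some with several start sites, and of their 55 windows 58.2% held GGGCGG and 29.1% held CCAAT. The annotated genes also overlap by 1346 bases on opposite strands, and since no source used here gives the strand setting of the counting, reads in that stretch could have been counted for either gene.

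COL4A5 and COL4A6 form the same arrangement on the X chromosome. COL4A5 (ENSG00000188153; hg38, chromosome X, 108439838 to 108697545, plus strand), a chain of kidney and eye basement membranes, had 11.1, 9.25 and 9.20 CPM in siPRMT1 libraries, against 22.7, 24.8 and 24.0 CPM in control libraries, with a log2 fold change of -1.28 (SE 0.0713; edgeR adjusted p = 6.35e-56) and -0.76 after the correction. COL4A6 had 35, 43 and 36 counts in siPRMT1 libraries, against 51, 64 and 58 in control libraries, and did not pass (log2 fold change -0.26, SE 0.174, adjusted p = 0.154 by edgeR), but passed as lower with scaling by library size alone (-0.57, adjusted p = 0.00123 by edgeR). The siPRMT1 libraries were well below the controls for COL4A5 and overlapped them for COL4A6, and the ratio of COL4A6 to COL4A5 was 0.196, 0.253 and 0.257 in siPRMT1 libraries, against 0.102, 0.129 and 0.114 in control libraries. Their windows, chrX:108439588-108439887 on the plus strand for COL4A5 and chrX:108439409-108439708 on the minus strand for the nearer of the listed COL4A6 starts, are shown against the COL4A1 pair because they lack its density of CG pairs.
COL4A5: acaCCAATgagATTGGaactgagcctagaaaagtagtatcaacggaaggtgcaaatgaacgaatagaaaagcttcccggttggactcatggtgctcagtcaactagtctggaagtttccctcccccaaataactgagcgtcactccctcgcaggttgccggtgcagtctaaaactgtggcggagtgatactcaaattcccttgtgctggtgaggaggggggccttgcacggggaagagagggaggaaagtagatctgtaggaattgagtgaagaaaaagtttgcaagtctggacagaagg
COL4A6: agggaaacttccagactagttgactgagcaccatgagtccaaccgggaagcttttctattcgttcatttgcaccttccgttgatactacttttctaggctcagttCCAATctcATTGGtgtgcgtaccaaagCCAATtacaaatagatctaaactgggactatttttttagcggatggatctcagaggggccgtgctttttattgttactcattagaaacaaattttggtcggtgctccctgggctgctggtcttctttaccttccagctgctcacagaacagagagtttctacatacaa
They hold 8 and 7 CG pairs at a GC content of 49.3% and 43.7%, with no GGGCGG, and the start sites lie 380 bases apart. The last pair, COL4A3 and COL4A4, was close to silent. COL4A4 fell to 0.914 ± 0.205 CPM in siPRMT1 libraries, against 2.23 ± 0.127 CPM in control libraries (SD, n = 3 each), with -1.30 (SE 0.232; edgeR adjusted p = 5.04e-08) and -0.54 after the correction. COL4A3 had 1, 2 and 1 counts in siPRMT1 libraries, against 3, 1 and 4 in control libraries, and was not tested.

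Collagen VI forms beaded filaments from COL6A1, COL6A2 and a much larger alternative chain, most often COL6A3, and here COL6A3 parted from the others. COL6A3 (ENSG00000163359; hg38, chromosome 2, 237324003 to 237414327, minus strand) had 6.58, 5.98 and 6.44 CPM in siPRMT1 libraries, against 37.1, 37.6 and 38.0 CPM in control libraries. COL6A1 (ENSG00000142156; hg38, chromosome 21, 45981770 to 46004908, plus strand) had 192, 189.5 and 184 CPM in siPRMT1 libraries, against 152, 154 and 158 CPM in control libraries. COL6A2 (ENSG00000142173; hg38, chromosome 21, 46098112 to 46132848, plus strand) had 68.6, 64.9 and 68.8 CPM in siPRMT1 libraries, against 42.5, 44.8 and 43.9 CPM in control libraries. No group overlapped with the other for any of these chains.

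COL6A3 fell 5.94-fold, a log2 fold change of -2.57 (SE 0.0713; edgeR adjusted p = 5.76e-144), and was lowest of all tested collagen chains also after the correction (-2.04). COL6A2 rose by 0.62 (SE 0.0388; edgeR adjusted p = 2.26e-47), but lay at -0.061 after the correction and did not pass there (adjusted p = 0.118 by edgeR). COL6A1 rose by 0.29 (SE 0.0238, edgeR adjusted p = 2.90e-29), but was lower at -0.20 after the correction. With scaling by library size alone COL6A1 lay at -0.031 and did not pass (adjusted p = 0.2125 by edgeR). Counts of COL6A3 per count of COL6A1 were 0.0342, 0.0316 and 0.0350 in siPRMT1 libraries, against 0.244, 0.244 and 0.240 in control libraries. This log2 difference of -2.85 (-1.83 from corrected values) was the widest of the 10 ratios by both. COL6A2 per COL6A1 was 0.357, 0.342 and 0.374 in siPRMT1 libraries, against 0.280, 0.290 and 0.277 in control libraries, a difference of 0.34. COL6A5 had no count and COL6A6 had 1 count over all libraries; these encode alternatives to COL6A3.

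**Figure D3:**
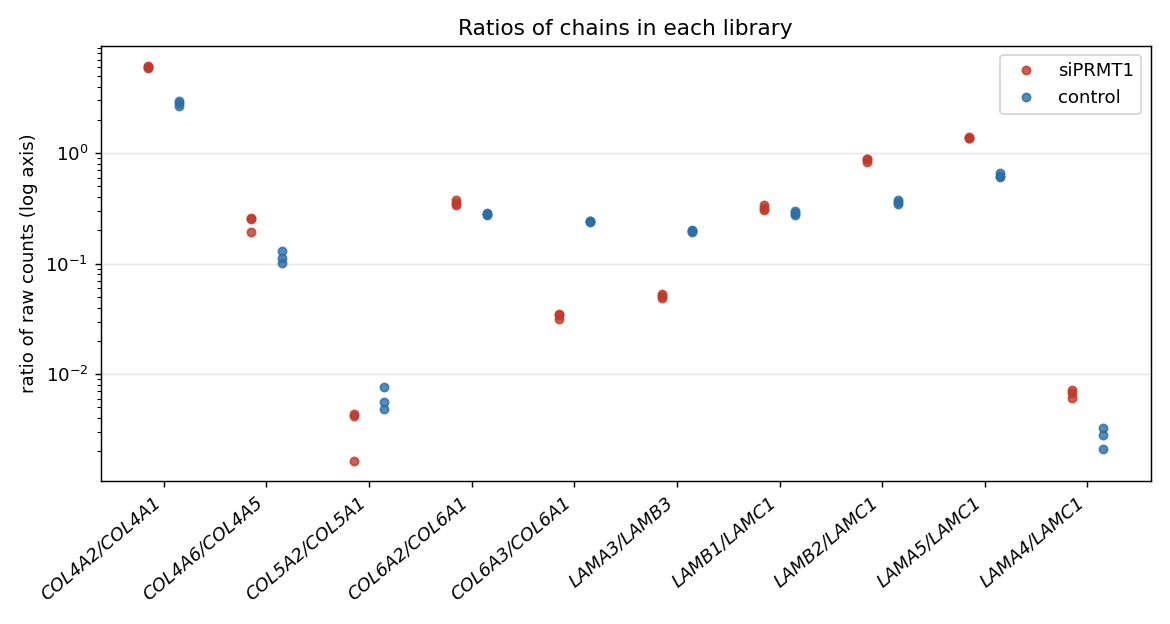
Ratio of raw counts of chains that can share a trimer, for 10 pairs of tested chains in each library (log axis; dots are libraries, siPRMT1 left of control). The groups are apart for every ratio, most for COL6A3 to COL6A1, at 0.0342, 0.0316 and 0.0350 in siPRMT1 libraries and 0.244, 0.244 and 0.240 in control libraries.

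Among fibrillar collagens, COL1A1 rose while its partner chain was near 0 in both groups and had fewer counts in siPRMT1 libraries. COL1A1, the major chain of collagen I in bone, skin and tendon (ENSG00000108821; hg38, chromosome 17, 50184101 to 50201631, minus strand), had 23.4, 24.4 and 20.9 CPM in siPRMT1 libraries, against 6.57, 6.40 and 8.19 CPM in control libraries. COL1A2, the other chain of collagen I, had 1, 4 and 3 counts in siPRMT1 libraries, against 8, 12 and 6 in control libraries, and was not tested. In a fit without the filter on low counts COL1A2 passed as lower (-1.33, adjusted p = 0.0335 by edgeR). Every siPRMT1 library was far above the controls for COL1A1, with a log2 fold change of 1.70 (SE 0.0768; edgeR adjusted p = 4.21e-77) and 1.5 after the correction (adjusted p = 1.23e-22 by edgeR). COL5A1, which starts and limits the width of collagen I fibrils (ENSG00000130635; hg38, chromosome 9, 134641803 to 134844843, plus strand), stood at 16.0 ± 0.176 CPM per kilobase in siPRMT1 libraries and 17.5 ± 0.533 in control libraries, the most of the fibrillar chains, with 134, 134 and 136 CPM in siPRMT1 libraries, against 143, 151 and 149.9 CPM in control libraries. The groups were apart by little, with -0.13 (SE 0.0259; edgeR adjusted p = 5.72e-07) for COL5A1 and -0.11 after the correction.

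COL5A2, its usual partner, had 9, 4 and 9 counts in siPRMT1 libraries, against 15, 23 and 18 in control libraries, and a log2 fold change of -0.99 (SE 0.350; edgeR adjusted p = 0.00557). It did not pass after the correction (-0.30, adjusted p = 0.435 by edgeR), by DESeq2 (adjusted p = 0.0541), or without siPRMT1 replicate 2 (-0.62, adjusted p = 0.118 by edgeR) or control replicate 2 (-0.78, adjusted p = 0.0598 by edgeR). COL5A2 per COL5A1 was 0.00416, 0.00163 and 0.00434 in siPRMT1 libraries, against 0.00480, 0.00763 and 0.00565 in control libraries. COL27A1, a fibrillar collagen of cartilage, averaged 8.47 ± 0.855 CPM in siPRMT1 libraries and 9.41 ± 0.879 CPM in control libraries (SD, n = 3 each), overlapped between the groups and did not pass (-0.14, adjusted p = 0.134 by edgeR), but passed as lower with upper-quartile scaling (-0.19, adjusted p = 0.0444 by edgeR) and with library size alone (-0.46, adjusted p = 1.10e-06 by edgeR). The other 7 fibrillar chains, among them the stromal chain COL3A1 and the cartilage chain COL2A1, were not tested.

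Of the fibril-associated collagens, which coat fibrils and link them to other matrix, COL12A1 fell and 3 others rose, of which COL9A2 and COL9A3 lay below 0 after the correction. COL12A1, found around fibrils of loaded tissue and tumour stroma (ENSG00000111799; hg38, chromosome 6, 75084326 to 75205851, minus strand), had 9.06, 8.76 and 8.08 CPM in siPRMT1 libraries, against 49.8, 51.7 and 50.8 CPM in control libraries. COL16A1, found in cartilage and skin, had 15.9, 14.2 and 15.3 CPM in siPRMT1 libraries, against 9.40, 11.1 and 10.7 CPM in control libraries. The libraries of the groups lay apart for both. COL12A1 fell 5.86-fold, with -2.55 (SE 0.0616; edgeR adjusted p = 1.94e-167) and -1.56 after the correction, and COL16A1 rose, with 0.54 (SE 0.0776; edgeR adjusted p = 1.55e-11) and 0.26. The cartilage chain COL9A2 rose to 8.29 ± 0.217 CPM in siPRMT1 libraries, against 4.87 ± 0.939 CPM in control libraries (SD, n = 3 each), with 0.78, but was at -0.014 after the correction and did not pass there. Its partner COL9A3 had 15, 16 and 8 counts in siPRMT1 libraries, against 11, 10 and 8 in control libraries, with 0.76 (SE 0.352; edgeR adjusted p = 0.0345) and -0.15, not past the threshold, after the correction. COL9A3 did not pass by DESeq2 (adjusted p = 0.128), with no filter on low counts (adjusted p = 0.0592 by edgeR), with library size alone (0.45, adjusted p = 0.217 by edgeR), or by edgeR without siPRMT1 replicate 1 (0.63, adjusted p = 0.132), without siPRMT1 replicate 2 (0.67, adjusted p = 0.117) or without control replicate 3 (0.64, adjusted p = 0.102).

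The collagens tied to epithelial cells and their basement membranes fell in part. COL7A1, the anchoring fibril that ties the epidermis to the dermis through laminin, had 44.8, 46.2 and 45.3 CPM in siPRMT1 libraries, against 72.4, 76.9 and 79.1 CPM in control libraries. COL13A1, a collagen that spans the plasma membrane at cell adhesions, had 55.4, 60.6 and 57.2 CPM in siPRMT1 libraries, against 90.7, 93.7 and 94.1 CPM in control libraries. COL17A1, the membrane collagen of hemidesmosomes, had 34.7, 36.2 and 37.0 CPM in siPRMT1 libraries, against 30.6, 32.5 and 31.4 CPM in control libraries. COL7A1 and COL13A1 were lower in every siPRMT1 library and COL17A1 a little higher. The log2 fold changes were -0.74 (SE 0.0379; edgeR adjusted p = 2.04e-64) for COL7A1 (-0.84 corrected) and -0.68 (SE 0.0343; edgeR adjusted p = 1.28e-65) for COL13A1 (-1.19 corrected). COL17A1 gave 0.19 (SE 0.0483; edgeR adjusted p = 1.07e-04), with 0.25 after the correction but lower at -0.13 with scaling by library size alone.

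The vessel and basement membrane collagens COL18A1 and COL15A1, whose C-terminal fragments endostatin and restin are known to inhibit angiogenesis, went opposite ways. COL18A1 had 122, 124 and 123 CPM in siPRMT1 libraries, against 83.8, 87.7 and 93.4 CPM in control libraries, with 0.48 (SE 0.0294; edgeR adjusted p = 4.88e-48) and 0.086 after the correction. That corrected value is close to the median of 0.067 over all tested genes. COL15A1 fell to 2.21 ± 0.477 CPM in siPRMT1 libraries, against 5.01 ± 0.213 CPM in control libraries (SD, n = 3 each), with -1.19 (SE 0.152; edgeR adjusted p = 3.88e-14) and -1.05 after the correction. COL8A1, a short-chain network collagen of vessels and the eye, had 31.2, 31.4 and 33.2 CPM in siPRMT1 libraries, against 56.8, 57.1 and 57.8 CPM in control libraries, with -0.84 (SE 0.0436; edgeR adjusted p = 4.37e-63) and -0.16 after the correction. COL8A1 and COL15A1 were below the controls in every siPRMT1 library, and COL18A1 was above them. COL18A1 shares 20149 bases with SLC19A1 and LAMB1 shares 7932 bases with DLD, on opposite strands, so these values are uncertain to the extent that reads were assigned without regard to strand. The same holds for LAMA4, which shares 18134 bases with an unnamed opposite-strand gene, and for shorter stretches of LAMA5 (906 bases with ADRM1) and COL9A3 (155 bases with TCFL5).

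The 24 chains that were not tested (22 collagens and 2 laminins) had at most 12 counts in any library, and 22 of them had at most 4. COL1A2 and COL11A2, a cartilage chain, are the exceptions. COL2A1, COL5A3, COL6A5 and COL26A1 had no count in any library, which allows up to 3 counts per library, or between 0.146 and 0.177 CPM by library totals; such limits cover counting error only. The remaining chains were COL3A1, COL4A3, COL6A6, COL8A2, COL9A1, COL10A1, COL11A1, COL14A1, COL19A1, COL20A1, COL21A1, COL22A1, COL23A1, COL24A1, COL25A1, COL28A1, LAMB4 and LAMC3. They include COL10A1, made by hypertrophic cartilage, and COL3A1, made by fibroblasts. In a fit without the filter on low counts, COL1A2 (-1.33, adjusted p = 0.0335 by edgeR) and COL25A1 (-2.64, adjusted p = 0.0409 by edgeR, with 0, 1 and 0 counts in siPRMT1 libraries against 4, 2 and 4 in control libraries) passed as lower, and the other untested chains with a count did not pass.

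Base composition ran along with these changes. Over the 32 tested chains, the log2 fold change correlated with the GC content of the canonical transcript at Pearson's r = 0.67 and Spearman's rho = 0.71, given as a description across genes of the same libraries. Over 13694 tested genes with a known transcript the values were 0.62 and 0.65. With log2 transcript length, Pearson's r was -0.59 for the chains and -0.49 for the 13694 genes. Of the 15 chains between 45% and 55% GC, 0 rose and 12 fell (80%). Of all 4300 tested genes in that range, 1886 rose (43.9%) and 1851 fell (43.05%). Of the 17 chains over 55% GC, 12 rose (70.6%) and 4 fell (23.5%). Of all 4262 tested genes over 55% GC, 3413 rose (80.1%) and 448 fell (10.5%). Set against all tested genes within the same 3 percentage points of GC content, 30 of the 32 chains lay below the median and 21 below the lower quartile. COL1A1 (61.5% GC) and LAMA4 (45.1% GC) were the chains above the median, and COL1A1 alone was above the upper quartile. The chains are long, with a median transcript of 6488.5 bases, beside 3253 bases for all tested genes.

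A fit with GC content and length removed as offsets gave a median log2 fold change of -0.16 over the 32 chains, beside 0.067 over all tested genes. With it 22 chains lay under the median of all tested genes and 10 above it. Past the threshold were 23 of 32 chains (80.5% of all tested genes passed by it), 9 higher chains (44.9% of all tested genes were higher by it) and 14 lower chains (35.6% of all tested genes). Of the 28 chains past the threshold without the correction, 20 passed it in the same direction with it. COL6A1, COL6A2, COL9A2 and COL9A3 were among those with the opposite sign.

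**Figure D4:**
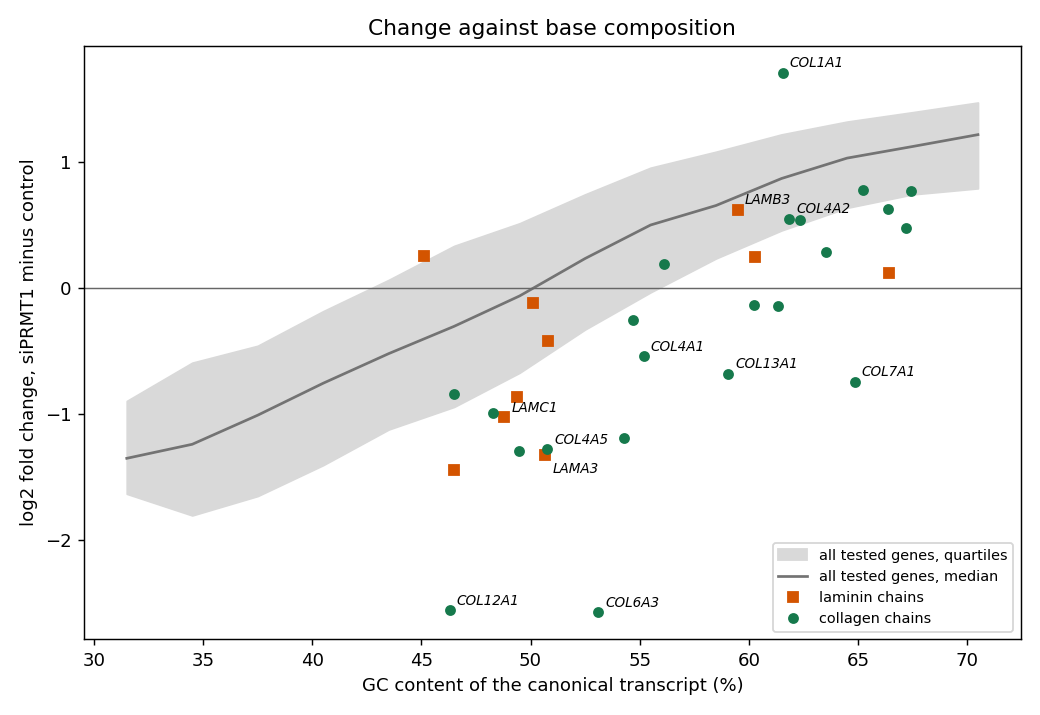
Log2 fold change (siPRMT1 minus control) against the GC content of the canonical transcript for 22 collagen chains (circles) and 10 laminin chains (squares). The grey line and band are the median and quartiles of all tested genes in steps of 3 percentage points; 30 of the 32 chains lie below the line.

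Seed matches of the miR-29 family were a sequence feature common to many of the chains. This microRNA family is known to repress collagen genes in fibroblasts, and its mature members are shown with the seed (bases 2 to 8, from RefSeq, GRCh38.p14) in capitals.
hsa-miR-29a-3p: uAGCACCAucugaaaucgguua
hsa-miR-29b-3p: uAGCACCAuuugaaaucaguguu
hsa-miR-29c-3p: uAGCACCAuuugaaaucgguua
The seed is the same in the 3 members. Its reverse complement TGGTGCT, read on the sense strand only, was found in the 3′ UTR of the canonical transcript (GENCODE release 44) of 31 of the 56 chains, or 55.4%. Of 19192 genes with a 3′ UTR of at least 50 bases, 14.3% held it. A match was more common among the collagen chains than among the laminin chains. COL5A1 had 4 matches, COL4A4 and COL5A3 had 3 each, and all 6 collagen IV chains had at least 1, and LAMA2 and LAMC1 had 1 each. The first match of chains named above, with 30 bases of DNA sense strand and the seed match in capitals, reads as follows.
COL4A1: gctaatgtcacaacaTGGTGCTacttcttc
COL4A2: caggaagggccatttTGGTGCTtattctta
COL1A1: tggggagggaatcacTGGTGCTatagaaat
COL5A1: taactcaatgaaaatTGGTGCTtatttttt
COL6A3: catgacctatcagtaTGGTGCTaatgtgtc
COL7A1: cactgtccctcccctTGGTGCTagaggctt
LAMC1: tattatctgacacacTGGTGCTattaatta
The matches of COL4A1 and COL4A2 begin at bases 30 and 28 of their 3′ UTRs.

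Among the tested chains, 18 had a match and 14 had none. Of the 18, 4 rose and 12 fell (22.2% and 66.7%), with a median log2 fold change of -0.64. Of the 2152 tested genes with a match, 711 rose and 1232 fell (33.04% and 57.2%), with a median of -0.37. Of the 14 chains without, 8 rose and 4 fell (57.1% and 28.6%), with a median of 0.22. Of the 11223 tested genes without, 5154 rose and 4845 fell (45.9% and 43.2%), with a median of 0.046. After the correction, 4 of the 18 chains were higher and 9 lower (22.2% and 50%), and 5 of the 14 higher and 5 lower (35.7% each). Of all tested genes with a match 46.8% were then higher and 34.9% lower, and of those without 44.6% and 35.6%. The corrected medians were -0.24 and 0.014 for the chains, and 0.089 and 0.062 for all tested genes. These are descriptions without a test. The tested chains with a match had a median GC content of 54.5% and a median transcript of 6612.5 bases. Those without had 59.3% and 5631 bases. Collagen chains made up most of the tested chains with a match, and laminin chains a larger share of those without. The part of these differences was not tested. Mature microRNAs were not analysed here, and a seed match does not show that a site is used.

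**Figure D5:**
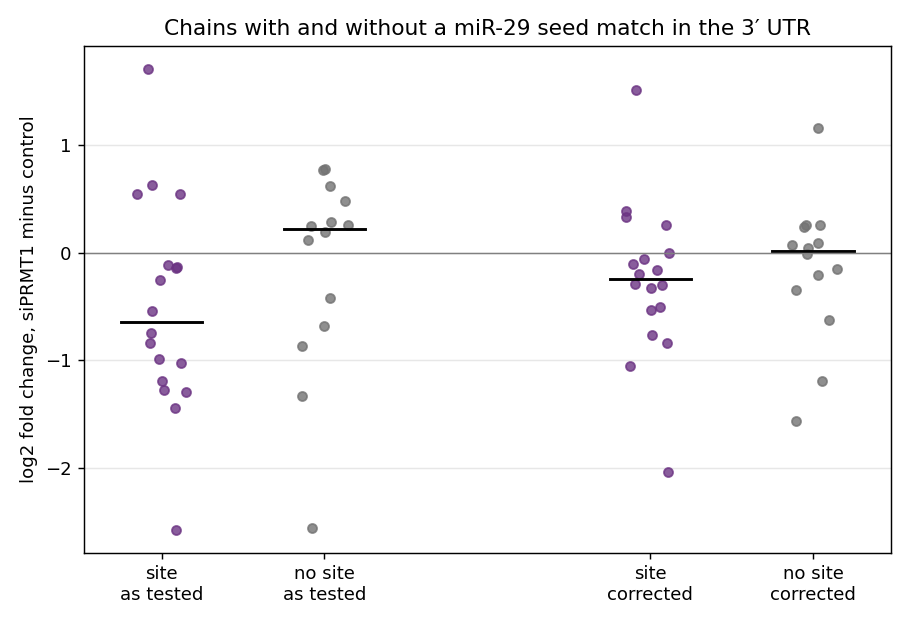
Log2 fold change (siPRMT1 minus control) of the 18 tested chains with and the 14 without a miR-29 seed match in the 3′ UTR, as tested (left) and after correction for GC content and length (right). Dots are chains, black bars are medians, which are -0.64 and 0.22 as tested and -0.24 and 0.014 corrected.

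Receptors of collagens and laminins also moved both ways. Of 17 listed genes 13 were tested, and 5 rose and 7 fell, with a median log2 fold change of -0.39 (0.093 corrected, with 6 higher and 5 lower). The called share was 92.3%, beside 89.3% of all tested genes. Of the tested receptors 38.5% rose and 53.8% fell, beside 44.3% and 45% of all tested genes. With the correction 46.2% were higher and 38.5% lower, beside 44.9% and 35.6% of all tested genes. ITGB1, the beta subunit of the main collagen and laminin integrins, fell to 293 ± 3.83 CPM in siPRMT1 libraries, against 1263 ± 13.3 CPM in control libraries (SD, n = 3 each), with -2.11 (SE 0.0179; -1.27 corrected) and an edgeR adjusted p too small for double precision. ITGA6 (-1.89, -0.93 corrected), a laminin receptor subunit, and ITGA2 (-1.77, -0.53 corrected), a collagen receptor subunit, fell as well. ITGB4, the beta subunit that joins ITGA6 in hemidesmosomes and binds the LAMA3 laminin, rose to 277 ± 5.48 CPM in siPRMT1 libraries, against 121 ± 1.98 CPM in control libraries, with 1.2 (SE 0.0231; edgeR adjusted p = 1.23e-208) and 0.93 corrected. CD151 (1.38, 0.25 corrected), a tetraspanin partner of laminin-binding integrins, BCAM (1.33, 0.40 corrected), a receptor for LAMA5, ITGA3 (0.52, 0.22 corrected) and the collagen receptor kinase gene DDR1 (0.58, 0.093 corrected) rose.

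Of 19 basement membrane partners 13 were tested, with 4 higher (30.8%, beside 44.3% of all tested genes) and 6 lower (46.2%, beside 45%). Their called share of 76.9% was below the 89.3% of all tested genes. The median was -0.45 (-0.41 corrected). With the correction 3 were higher (23.1%, beside 44.9% of all tested genes) and 8 lower (61.5%, beside 35.6%). FRAS1 (-2.17), which holds epithelia to the dermis, the laminin-binding netrin gene NTN4 (-1.33) and AGRN (-0.43), a heparan sulfate proteoglycan that binds laminin, fell. VWA1 (1.57), whose product binds perlecan, the fibulin gene EFEMP1 (0.54), SPARC (0.97), a collagen-binding glycoprotein, and TINAGL1 (0.56) rose. TINAGL1 was lower at -0.34 after the correction, and SPARC did not pass without control replicate 1 (0.67, adjusted p = 0.0616 by edgeR) or with library size alone (0.65, adjusted p = 0.0545 by edgeR).

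Of 22 fibril partners and procollagen processing genes 13 were tested, with 4 higher (30.8%, beside 44.3% of all tested genes), 8 lower (61.5%, beside 45%) and a median of -0.80 (-0.037 corrected, with 2 higher, 5 lower and 6 not past). The corrected shares were 15.4% higher and 38.5% lower, beside 44.9% and 35.6% of all tested genes. FN1 (-1.61, -0.99 corrected), on which fibrils are assembled, MATN2 (-1.2) and FBN1 (-1.05, -0.081 corrected) fell, FBN1 not past the threshold after the correction. BMP1 (1.10, 0.62 corrected), which cleaves the C-propeptide of fibrillar procollagens, rose, as did its enhancers PCOLCE (1.16, 0.0052 corrected) and PCOLCE2 (0.38, 0.18 corrected) and the tenascin gene TNXB (0.48). PCOLCE and PCOLCE2 did not pass after the correction (adjusted p = 0.977 and 0.336 by edgeR). PCOLCE2 also did not pass without siPRMT1 replicate 2 or 3 or control replicate 1 or 2, at log2 fold changes between 0.28 and 0.40 (adjusted p between 0.0643 and 0.161 by edgeR), nor by DESeq2 (adjusted p = 0.127), with upper-quartile scaling (adjusted p = 0.0716 by edgeR), with no filter on low counts (adjusted p = 0.0539 by edgeR) or with library size alone (0.060, adjusted p = 0.746 by edgeR). Of 24 genes for collagen folding, secretion and crosslinking 23 were tested, with 10 higher, 10 lower (43.5% each, beside 44.3% and 45% of all tested genes) and a median of 0.068 (0.088 corrected, with 12 higher and 10 lower). Here the corrected shares were 52.2% higher and 43.5% lower, beside 44.9% and 35.6% of all tested genes. PLOD2, which hydroxylates telopeptide lysines for crosslinks, fell to 13.4 ± 1.00 CPM in siPRMT1 libraries, against 115 ± 0.898 CPM in control libraries (SD, n = 3 each), with -3.10 (SE 0.0462; edgeR adjusted p = 9.07e-260) and -2.14 corrected. SEC23A (-2.76, -1.91 corrected), a coat subunit for procollagen export, fell too. The collagen chaperone gene SERPINH1 (1.35, 0.53 corrected) and the prolyl isomerase gene PPIB (1.34, 0.49 corrected) rose.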

How the data were processed

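Named in the submitters' processing notes, with no role, are hg38, edgeR 3.40.2, Subread 1.5.1, featureCounts, STAR 2.7.6a and fastp 0.23.2. No source used here gives the annotation, strand setting or duplicate handling. Per the file headers, the deposited table holds raw read counts of each gene and, in a column of its own, a gene length in bases. Library totals lay between 16968563 and 20545995 counts.

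Genes were kept with filterByExpr (13710 of 20532) and tested with edgeR 4.0.16 in R 4.3.3 (TMM, glmQLFit, glmQLFTest, two-sided, Benjamini-Hochberg over all tested genes, threshold 0.05). Standard errors came from the F statistic and the fold change. Within groups, chi-square over degrees of freedom between replicates was 1.05 to 1.38, and the common dispersion (9.77e-05) was at the floor of its search, so each sample was kept as a replicate with a small spread. GC content and transcript length (canonical transcripts, GENCODE release 44) were known for 13694 tested genes, and splines with 5 degrees of freedom on each were removed as offsets in the corrected fit. Chain ratios used an exact permutation test (scipy 1.17.1). Alternatives were RLE, upper-quartile and library-size scaling, DESeq2 1.42.0, limma-voom (limma 3.58.1), robust estimation, other filters, the replicate block and leaving out each sample.

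The chains, lists and alternatives were chosen with earlier results of these data known. Chains with a mean of at least 10 CPM have every sample's value, and from each list the 4 genes of smallest adjusted p at most are named, plus those that moved against its majority. Single values of 1 laminin chain are not reported here; it stays in the fit, the counts and the sums.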

Additional observations from a re-analysis of the deposited data

How the results depend on the processing

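Of 432 values of single chains under alternatives that left scaling by library size and base composition aside, 421 kept their direction and side of the threshold and 0 turned; the others are COL9A3, COL5A2, LAMA1 and COL27A1, all low or close to the threshold. The number of chains past the threshold (28) lay between 26 and 28 when each sample was left out in turn, with between 11 and 12 higher and between 15 and 17 lower. With the replicate number as a block it was 28, 12 higher and 16 lower, and 12219 of all tested genes passed in place of 12243. Samples with the same number did not deviate together (correlations of -0.010, 0.037 and 0.0015), and the block changed no call among the chains in the fit without the GC and length correction; with that correction COL27A1 passed only under the block (-0.21, adjusted p = 0.0342 by edgeR), for 24 chains in place of 23.

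Scaling by library size alone left 7 higher and 22 lower chains, and turned COL6A1 (-0.031), COL17A1 (-0.13), LAMA4 (-0.063), LAMA5 (-0.20) and LAMB2 (-0.074). COL6A1 and LAMA4 did not pass with that scaling (adjusted p = 0.2125 and 0.816 by edgeR). By it 4588 of all tested genes were higher and 7593 lower, in place of 6078 and 6165. Among the chains with single values and the genes named from the lists other than markers, the correction for GC content and length turned the following. They are COL9A2 (-0.014, -0.022 with the replicate block), COL9A3 (-0.15, -0.17), COL6A1 (-0.20, -0.20), COL6A2 (-0.061, -0.060), LAMA1 (0.24, 0.26) and TINAGL1 (-0.34, -0.34), and the ratio LAMB1/LAMC1 (-0.051). Listed genes not named above turned as well. Among these, past the threshold in both fits, were ITGA1 (-1.31 to 0.13), MIA3 (-0.77 to 0.43), MIA2 (-0.76 to 0.38), P4HA2 (-0.29 to 0.35) and P4HB (0.42 to -0.17). The corrected chain ratios were added after seeing the data. The cause of these turns was not tested. Chains under about 1 CPM are limited by depth.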

Other observations

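Several chain genes are neighbours in the genome, by the coordinates of the deposited table. COL6A1 and COL6A2 lie 93203 bases apart on chromosome 21 and had log2 fold changes of 0.29 and 0.62, which the correction for GC content and transcript length turned to -0.20 and -0.061, while COL6A3 on chromosome 2 fell (-2.57). LAMB1 and the nearly silent LAMB4 lie 20334 bases apart on chromosome 7. COL3A1 and COL5A2 lie tail to tail on chromosome 2, 19151 bases apart, and both were low, with 1, 0 and 1 counts for COL3A1 in siPRMT1 libraries and 4, 3 and 2 in control libraries. The 5 markers of osteoblasts, the cells that make the collagen I of bone, summed to between 19.6 and 21.5 CPM in siPRMT1 libraries and between 60.6 and 66.4 CPM in control libraries, and moved in opposite directions: RUNX2 fell (-1.89, -1.04 corrected), BGLAP rose (1.83, 0.63 corrected), and SP7, IBSP and ALPL stayed under 10 counts in every library. Their part in the rise of COL1A1 was not tested.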
